A study of Mus musculus with 8 samples.

Results

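The genes described here are those of the TGF-beta ligand, its receptor chains and the SMAD proteins that carry its signal: Tgfb1, Tgfbr1, Tgfbr2, Smad2, Smad3, Smad4, Smad7, Ski and Skil. They were chosen by symbol, and all 9 were found among the 13204 genes of the deposited expression table. The table holds 8 RNA sequencing libraries of mouse CD8 T cells. Of these, 4 libraries of FcgRIIB+ cells are set against 4 libraries of FcgRIIB- cells, FcgRIIB being the inhibitory Fc receptor for IgG. Both groups are OT-I cells, whose T cell receptor recognises an ovalbumin peptide, sorted as CD44hi, Thy1.1+ and CD8+. In both, 1000000 OT-I cells had been transferred 24 hours before a skin graft that expresses ovalbumin, and spleens were taken on day 14. Each replicate number is 1 pool of 3 spleens, from which 1000 cells per library were sorted for both groups. Poly(A) RNA went through SMART-seq v4 amplification and NexteraXT library preparation. No source used here gives the strain, age or genotype of the recipients. The read depth recovered from the values ranged over 5310000 to 22010000 in positive and 3060000 to 17950000 in negative libraries. In both groups the first 2 replicates had more reads than the last 2. Between 123 and 6885 reads lay behind each value of the 9 genes, and the errors given are the spread between replicates.

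TGF-beta is secreted in a latent form and, once released, binds the type II receptor chain, which recruits and phosphorylates the type I chain. The type I chain phosphorylates the receptor SMADs, which join SMAD4 and act on genes in the nucleus. SMAD7 blocks the receptor, and SKI and SKIL bind the SMAD complexes and hold back transcription, so that Smad7 and Skil, both induced by the pathway, form feedback loops. In T cells the pathway is known for restraining proliferation and effector functions and for supporting residence in tissues.

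The letters upstream of the genes of the ligand and of both receptor chains are shown, and any link to RNA levels was not tested. Each is the 250 bases before a start site in RefSeq (GRCm38.p6), 5′ to 3′ on the strand of the gene, and capitals mark the letters CCGCCC or their reverse complement, the core of a GC box. For Tgfbr1 the first of 2 listed start sites is shown. They lie at chr7:25686752-25687001 (Tgfb1, + strand), chr4:47352972-47353221 (Tgfbr1, + strand) and chr9:116175364-116175613 (Tgfbr2, - strand).
Tgfb1: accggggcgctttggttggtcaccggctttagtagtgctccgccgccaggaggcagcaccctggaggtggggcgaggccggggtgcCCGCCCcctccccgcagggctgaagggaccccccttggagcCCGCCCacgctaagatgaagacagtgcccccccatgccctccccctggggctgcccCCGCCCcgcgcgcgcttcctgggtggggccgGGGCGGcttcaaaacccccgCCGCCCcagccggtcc
Tgfbr1: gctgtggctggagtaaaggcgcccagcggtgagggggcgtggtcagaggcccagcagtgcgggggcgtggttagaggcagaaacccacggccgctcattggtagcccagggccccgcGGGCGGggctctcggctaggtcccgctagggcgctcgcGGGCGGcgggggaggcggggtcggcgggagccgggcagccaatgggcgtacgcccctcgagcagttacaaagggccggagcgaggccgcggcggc
Tgfbr2: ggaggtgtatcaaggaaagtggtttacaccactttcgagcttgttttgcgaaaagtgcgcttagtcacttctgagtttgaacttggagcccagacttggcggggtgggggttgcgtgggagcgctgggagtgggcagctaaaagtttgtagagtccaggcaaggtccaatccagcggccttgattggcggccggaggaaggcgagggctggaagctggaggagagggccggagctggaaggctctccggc
Tgfb1 held 5 GC box matches, Tgfbr1 held 2 and Tgfbr2 none, while 32.7% of all 32851 promoters of this length held at least 1. GC content was 75.2% in Tgfb1, 74.8% in Tgfbr1 and 58.4% in Tgfbr2, against a median of 52.4% over all promoters. The windows held 21, 29 and 12 CpG pairs in that order, against a median of 6. Of the other genes with a window used here, Smad3 held 2 GC box matches and Ski 5. The letters CAGACA, a SMAD-binding element, or their reverse complement are in 17.1% of all promoters and were in none of these 5 first windows, and once in the window of the second start site of Tgfbr1. No window of Smad2, Smad4, Smad7 or Skil was used, so these counts do not cover them. A match is only a match of letters, and its absence says nothing about binding outside the window.

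None of the 9 genes passed the test between FcgRIIB-positive and FcgRIIB-negative libraries. Levels are RPKM, reads scaled to exon length and to library depth, as deposited by the authors. The test was limma on log2(RPKM + 1), a gene being called at a Benjamini-Hochberg adjusted p under 0.05. All 9 genes passed the filter on low values (at least 1 RPKM in at least 4 libraries). Limma called 0 of the 9 in each direction, where it called 3.03% of 11946 tested genes higher and 0.268% lower, 3.3% in all. At an unadjusted p under 0.05 limma had 1 of the 9, Tgfbr1, which was higher, where 12.1% of all genes passed that mark, and 7.48% of all did so as higher. With the replicate number as a block limma again called 0 of the 9, with 3 at an unadjusted p under 0.05, all higher. The background there was 7.22% called higher and 3.85% called lower (11.1% in all), and 11% higher at an unadjusted p under 0.05. For each of the 9 genes the ranges of the groups overlapped, while 4.61% of all genes had every positive library above every negative one and 4.15% had every one below. The 3 fold changes of the largest size belonged to Skil, Tgfbr1 and Tgfb1, and each was above 0. The other 6 lay between -0.34 and 0.15 on the log2 scale. The median of the 9 was -0.11, the same to 2 decimals as the median of all tested genes (-0.11). A p that misses the threshold does not show that the levels were equal. Since these are bulk libraries, fewer cells of a type and less RNA per cell cannot be told apart.

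**Figure D1:**
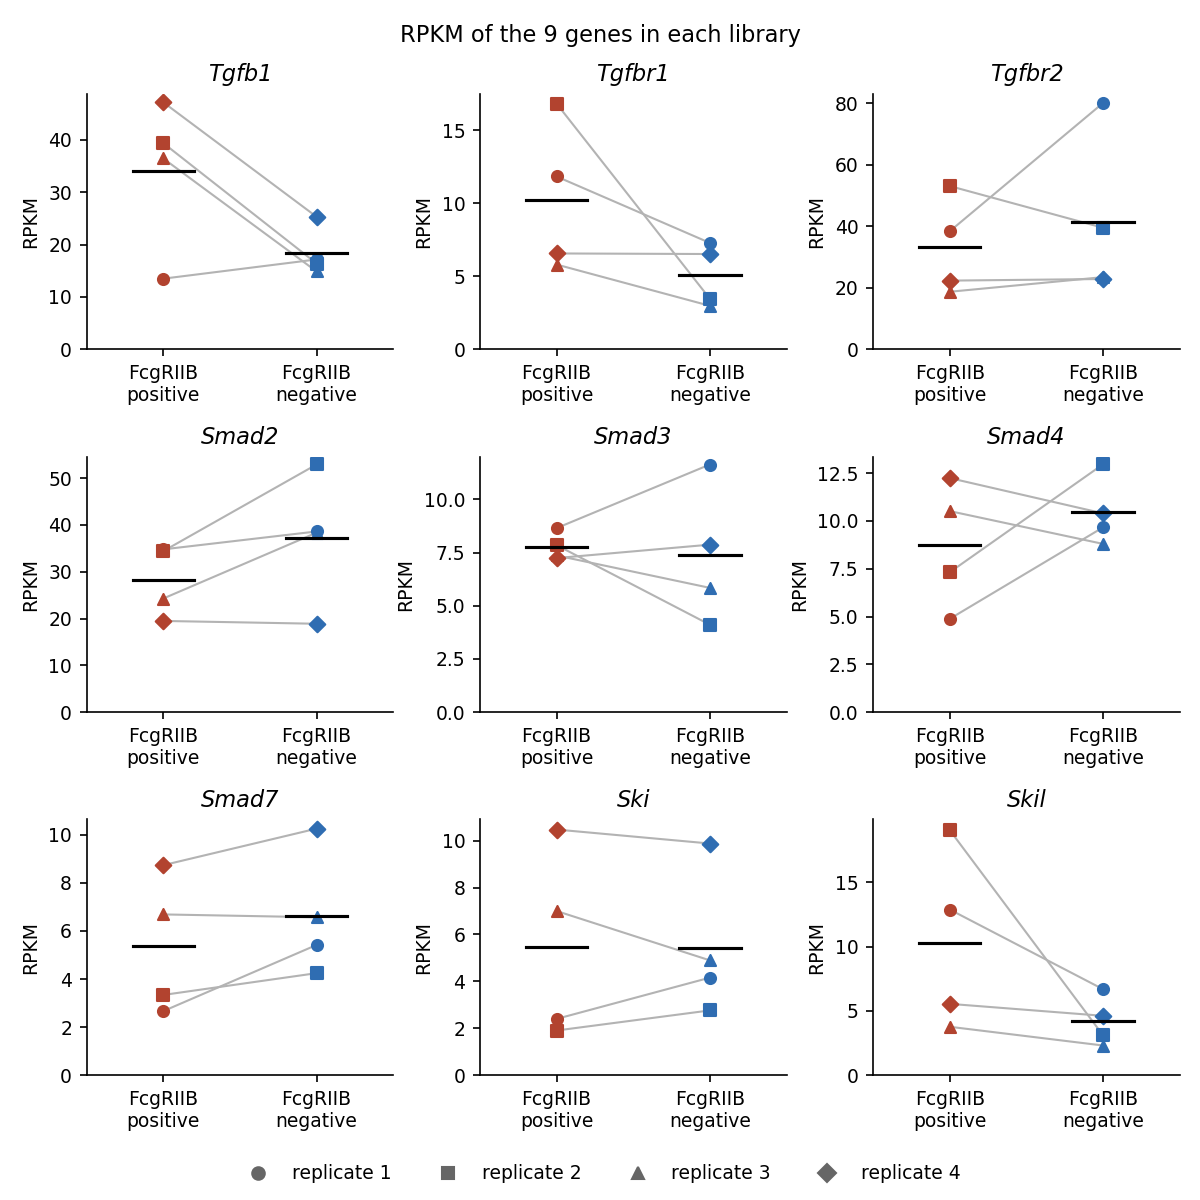
Level of each gene (y axis, RPKM, linear from 0) in FcgRIIB-positive (left, red) and FcgRIIB-negative (right, blue) libraries. Symbols mark the replicate, grey lines join libraries from 1 pool of spleens, and black bars are group means (n = 4 each). Tgfbr1 and Skil were higher in the positive library of all 4 pools, Tgfb1 in 3 of 4, and the ranges of both groups overlap in every panel.

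Tgfb1 (Entrez 21803), the gene of the ligand that is most widely made by immune cells, stood at 13.5, 39.4, 36.5 and 47.2 RPKM in positive replicates 1 to 4, against 17.2, 16.4, 14.9 and 25.3 RPKM in negative replicates 1 to 4. Positive replicates 2, 3 and 4 were above all negative libraries, and positive replicate 1 was below all of them. The means were 34.1 ± 14.5 RPKM (SD) over the 4 positive and 18.4 ± 4.69 RPKM over the 4 negative libraries. On the log2 scale the fold change was 0.75 (SE 0.40, 95% interval -0.13 to 1.63, limma adjusted p = 0.537). With the replicate block the interval was 0.20 to 1.30 and the adjusted p 0.0744 (limma), which also missed the threshold. Without positive replicate 1 the log2 fold change was 1.13, with a limma adjusted p of 0.131.

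Tgfbr1 (Entrez 21812), the gene of the type I receptor kinase, stood at 11.8, 16.8, 5.80 and 6.56 RPKM in positive replicates 1 to 4, against 7.28, 3.46, 2.97 and 6.52 RPKM in negative replicates 1 to 4. The positive library was the higher one in every pool, but in pool 4 by only 0.01 on the log2 scale. Positive replicates 1 and 2 stood above all negative libraries, while positive replicates 3 and 4 lay within their range. The means were 10.3 ± 5.14 RPKM (SD) over the 4 positive and 5.06 ± 2.16 RPKM over the 4 negative libraries, a log2 fold change of 0.85 (SE 0.39, 95% interval 0.01 to 1.70, limma adjusted p = 0.403). The blocked fit gave an interval of 0.21 to 1.495 and an adjusted p of 0.0812 (limma).

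Tgfbr2 (Entrez 21813), the gene of the chain that binds the ligand, was among the most abundant of the 9. It stood at 38.4, 53.1, 18.7 and 22.3 RPKM in positive replicates 1 to 4, against 80.1, 39.5, 23.4 and 22.8 RPKM in negative replicates 1 to 4. Its values parted the replicates and not the groups: replicates 1 and 2 lay between 38.4 and 80.1 RPKM and replicates 3 and 4 between 18.7 and 23.4 RPKM. The means were 33.1 ± 15.8 RPKM (SD) over the 4 positive and 41.5 ± 26.9 RPKM over the 4 negative libraries, with a log2 fold change of -0.24 (SE 0.47, 95% interval -1.27 to 0.78, limma adjusted p = 0.986). Without negative replicate 1, which held the highest value, the log2 fold change was 0.13. The blocked fit over all libraries gave an interval of -0.77 to 0.28 and an adjusted p of 0.650 (limma).

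The ratio of the type I to the type II chain within each library separated the groups but did not pass the test after adjustment. The log2 ratio of Tgfbr1 to Tgfbr2 (each as RPKM + 1) was -1.62, -1.60, -1.53 and -1.62 in positive replicates 1 to 4, against -3.29, -3.18, -2.62 and -1.66 in negative replicates 1 to 4. The positive libraries lay within 0.09 of each other and above all negative ones, of which replicate 4 came within 0.04 of its partner. The difference of the mean ratios was 1.10 (exact permutation p = 0.0286, two-sided, the smallest that 35 splits allow). It was higher in 4 of 4 pools, but adjusted over the 4 ratios computed the exact permutation p was 0.114, which misses 0.05. Exchanging the groups only within pools gave an exact p of 0.125, the smallest possible with 4 pools. A ratio shows unequal change of the 2 chains and not which of them changed.

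Smad2 (Entrez 17126), which codes for a receptor SMAD, stood at 34.8, 34.4, 24.3 and 19.5 RPKM in positive replicates 1 to 4, against 38.6, 52.9, 38.3 and 18.9 RPKM in negative replicates 1 to 4. Negative replicates 1, 2 and 3 were above every positive library and negative replicate 4 was below every one. On the log2 scale the fold change was -0.34 (SE 0.38, 95% interval -1.16 to 0.49, limma adjusted p = 0.907). The replicate block narrowed the interval to -0.82 to 0.15, with an adjusted p of 0.434 (limma). Smad3 (Entrez 17127), the gene of the other receptor SMAD of this branch, stood at 8.65, 7.85, 7.36 and 7.24 RPKM in positive replicates 1 to 4, against 11.6, 4.11, 5.84 and 7.87 RPKM in negative replicates 1 to 4. The positive libraries all lay inside the range of the negative ones, with an SD of 0.639 RPKM in the positive libraries and 3.24 RPKM in the negative ones. Smad3 had a log2 fold change of 0.15 (SE 0.32, 95% interval -0.55 to 0.84, limma adjusted p = 0.996), which became -0.06 without negative replicate 2. Its interval with the block was -0.43 to 0.73 (limma adjusted p = 0.839). Smad2 was above Smad3 in each of the 8 libraries, and the log2 ratio of Smad3 to Smad2 averaged -1.70 ± 0.31 in positive and -2.18 ± 0.99 in negative libraries (SD, n = 4 each; exact permutation p = 0.429, also 0.429 adjusted over the 4 ratios). Exchanged only within pools, this ratio had an exact permutation p of 0.5.

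Smad4 (Entrez 17128), the gene of the partner shared by all receptor SMADs, stood at 4.88, 7.32, 10.5 and 12.2 RPKM in positive replicates 1 to 4, against 9.66, 12.96, 8.80 and 10.4 RPKM in negative replicates 1 to 4. In pools 1 and 2 the positive library was the lower one, and in pools 3 and 4 the higher one. Smad4 had a log2 fold change of -0.29 (SE 0.32, 95% interval -0.99 to 0.41, limma adjusted p = 0.902). Within replicates 3 and 4 alone it was 0.22, and within replicates 1 and 2 alone -0.80, with limma adjusted p of 0.914 and 0.344. Over all libraries the blocked fit gave an interval of -0.86 to 0.29 and an adjusted p of 0.612 (limma).

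Smad7 (Entrez 17131), the gene of the inhibitory SMAD, stood at 2.67, 3.34, 6.69 and 8.74 RPKM in positive replicates 1 to 4, against 5.42, 4.25, 6.57 and 10.3 RPKM in negative replicates 1 to 4. All 4 libraries of replicates 3 and 4 were above all 4 of replicates 1 and 2, whichever the group. Smad7 had a log2 fold change of -0.32 (SE 0.38, 95% interval -1.15 to 0.51, limma adjusted p = 0.926). Its interval with the block was -0.90 to 0.27 (limma adjusted p = 0.572). The log2 ratio of Smad7 to Smad3 was lower in the positive library of all 4 pools, by 0.10 to 1.07, and averaged -0.58 ± 0.76 in positive and -0.11 ± 0.59 in negative libraries (SD, n = 4 each). The exact permutation p was 0.286, and 0.381 adjusted over the 4 ratios. Exchanged only within pools it was 0.125, the smallest possible with 4 pools, and 0.167 adjusted.

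Ski (Entrez 20481), a repressor that binds SMAD complexes, stood at 2.40, 1.90, 7.0 and 10.5 RPKM in positive replicates 1 to 4, against 4.16, 2.76, 4.90 and 9.88 RPKM in negative replicates 1 to 4. Like Smad7, it was higher in all 4 libraries of replicates 3 and 4 than in those of replicates 1 and 2. For Ski the fold change was -0.11 on the log2 scale (SE 0.48, 95% interval -1.16 to 0.93, limma adjusted p = 1.00). Its sign was not stable: it was 0.12, 0.19 and 0.18 without positive replicate 1, positive replicate 2 or negative replicate 4. The blocked fit gave Ski an interval of -0.73 to 0.50 and an adjusted p of 0.889 (limma). Skil (Entrez 20482), the related repressor also called SnoN, stood at 12.9, 19.0, 3.76 and 5.55 RPKM in positive replicates 1 to 4, against 6.68, 3.09, 2.31 and 4.62 RPKM in negative replicates 1 to 4. It was higher in the positive library of all 4 pools, and positive replicates 1 and 2 exceeded every other library. The means were 10.3 ± 7.04 RPKM (SD) over the 4 positive and 4.17 ± 1.93 RPKM over the 4 negative libraries. Its fold change was 0.97 on the log2 scale (SE 0.46, 95% interval -0.03 to 1.98, limma adjusted p = 0.440). The replicate block narrowed the interval to 0.31 to 1.64, with an adjusted p of 0.055 (limma). Without positive replicate 2 the fold change was 0.62. Of the 9 genes, Tgfbr1 and Skil (2 genes) were higher in the positive library of all 4 pools and 0 were lower in all 4, where 10.3% and 19.8% of all tested genes were.

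**Figure D2:**
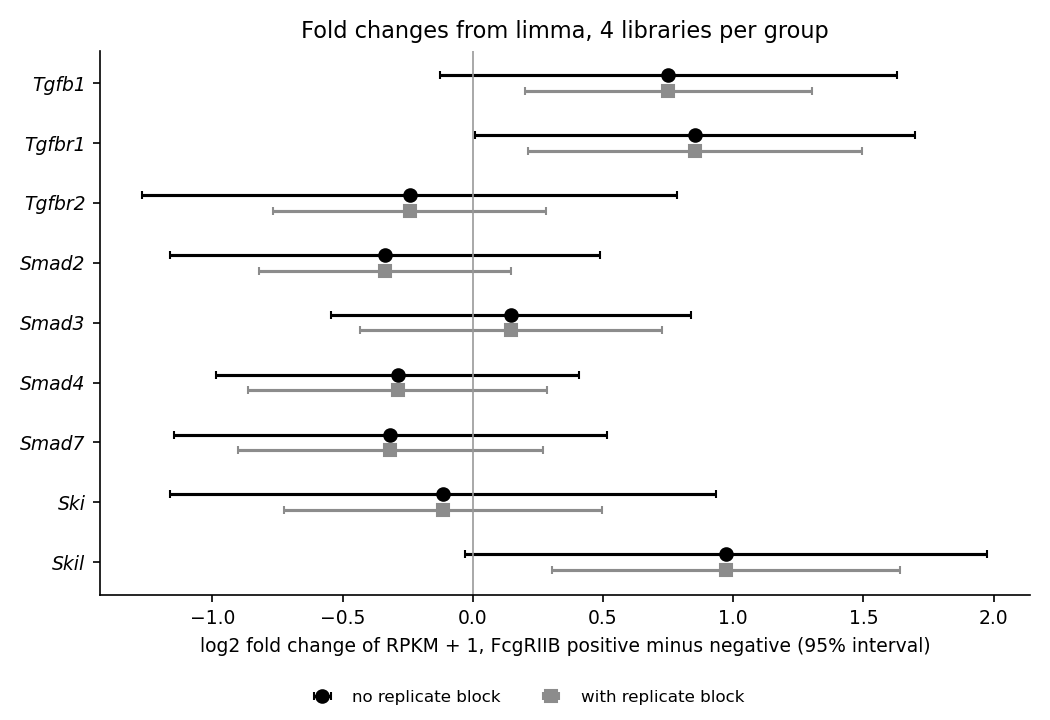
Log2 fold change of RPKM + 1, FcgRIIB-positive minus FcgRIIB-negative (x axis), for each gene, with 95% intervals from limma without (black circles) and with (grey squares) the replicate block, 4 libraries per group. The estimates are equal in both fits, and Tgfb1, Tgfbr1 and Skil (0.75, 0.85 and 0.97) lie apart from the other 6, which are between -0.34 and 0.15.

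The 2 repressors were set apart by the replicates. The log2 ratio of Skil to Ski was 2.03, 2.79, -0.75 and -0.81 in positive replicates 1 to 4, against 0.57, 0.12, -0.83 and -0.95 in negative replicates 1 to 4. It was above 0 in each library of replicates 1 and 2 and below 0 in each of replicates 3 and 4. Pools 1 and 2 differed between the groups by 1.46 and 2.67, and pools 3 and 4 by 0.09 and 0.14. The exact permutation p over all splits was 0.286, and 0.381 adjusted over the 4 ratios. Exchanged only within pools it was 0.125, the smallest possible here, and 0.167 adjusted. The same replicates carried the fold change of Skil itself, which was 1.57 within replicates 1 and 2 alone (limma adjusted p = 0.0357) and 0.37 within replicates 3 and 4 alone (limma adjusted p = 0.890). In the fit of replicates 1 and 2 alone 7.32% of all genes were called higher and 1.19% lower (8.51% in all), and Skil was the 1 call among the 9 genes. For Tgfbr1 the fold changes within the 2 sets were 1.32 and 0.39, and for Tgfb1 they were 0.45 and 1.06, with limma adjusted p between 0.0886 and 0.871. Whether the sets differ was not tested.

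**Figure D3:**
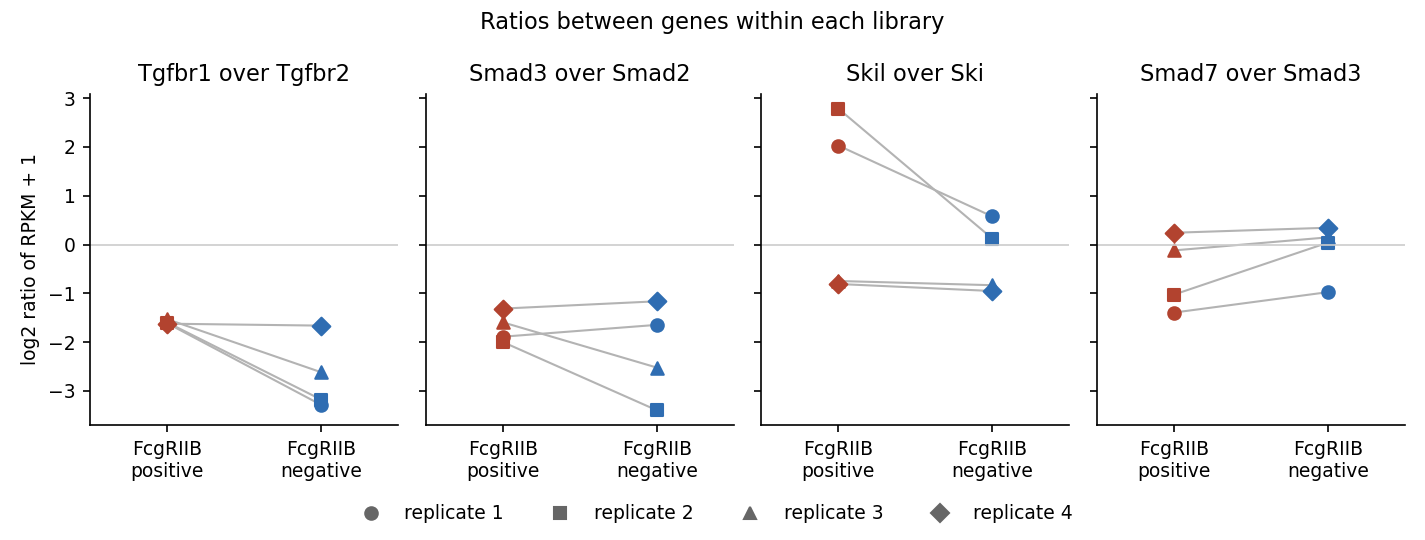
Log2 ratio of RPKM + 1 (y axis) between pairs of the 9 genes within each FcgRIIB-positive (left, red) and FcgRIIB-negative (right, blue) library, with lines joining libraries from 1 pool. For Tgfbr1 over Tgfbr2 the positive libraries sit between -1.62 and -1.53, and the negative ones spread from -3.29 to -1.66.

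By level per length, the order of the 9 genes differed between the groups mainly by the place of Tgfb1, Tgfbr1 and Skil. In positive libraries Tgfb1, Tgfbr2 and Smad2 led, with means of 34.1, 33.1 and 28.2 RPKM. Skil, Tgfbr1, Smad4, Smad3, Ski and Smad7 followed at 10.3, 10.3, 8.74, 7.78, 5.44 and 5.36 RPKM. In negative libraries Tgfbr2 and Smad2 led with 41.5 and 37.2 RPKM, and Tgfb1 came after them with 18.4 RPKM. Smad4, Smad3, Smad7, Ski, Tgfbr1 and Skil followed at 10.5, 7.36, 6.62, 5.42, 5.06 and 4.17 RPKM. Between neighbours in these orders the ranges overlapped, except between Smad2 and Skil in positive libraries and between Tgfb1 and Smad4 in negative libraries. The genes with the most similar profile over the 8 libraries were measured by the root mean square distance of centred log2(RPKM + 1) values. For Tgfb1 they were Phf10, Hs6st1 and Ift57, at 0.19, 0.20 and 0.22, where the median tested gene was at 0.86. For Tgfbr2 they were Vars, Usp38 and Pak2, at 0.12, 0.14 and 0.15 (median gene 0.80). For Smad7 they were Fam193b, Zfp777 and Kbtbd11, at 0.13, 0.14 and 0.14 (median gene 0.71).

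Marker genes were used to check what the libraries held. Fcgr2b, the gene of the sorted receptor, stood at 69.9, 55.2, 39.1 and 29.6 RPKM in positive replicates 1 to 4, against 3.19, 4.82, 1.82 and 4.76 RPKM in negative replicates 1 to 4. The groups did not overlap, with a log2 fold change of 3.40 (limma adjusted p = 0.000441). The 17 core T cell genes, such as those of the CD3 chains, were present in every library, and all had fold changes below 0 with a median of -0.98. Their summed level was 2262 to 4789 RPKM in the positive libraries and 5897 to 9534 RPKM in the negative ones. None of the 17 was called (8 lower at an unadjusted p under 0.05 in limma), and 9 were called lower with the replicate block. Of 10 dendritic cell markers limma called 9 higher and none lower, and all 10 higher with the replicate block, and their summed level was 440 to 1036 RPKM in the positive libraries and 24.1 to 78.0 RPKM in the negative ones. Clec10a was the 1 marker among them listed at 0 in a library. Naaa and Itgax were the most abundant, with log2 fold changes of 4.16 and 1.80 (limma adjusted p = 0.000217 and 0.242), and Itgax was called with the block (adjusted p = 0.000117, limma). Of 14 macrophage and monocyte markers 10 were called higher, and 12 with the replicate block, with sums of 3153 to 4359 RPKM in the positive libraries and 1740 to 3449 RPKM in the negative ones, and none was listed at 0. Their most abundant members, Ly6c2 and Lyz2, were not called without the block (-0.51 and 2.19 on the log2 scale). Lyz2 was called higher with the block (limma adjusted p = 0.000798). Ly6c2 was the 1 marker of the 14 with a fold change below 0, and it made up most of each negative sum. It stood at 587 to 2422 RPKM in the positive libraries and 1431 to 3210 RPKM in the negative ones. Basophil and mast cell markers summed to 42.4 to 709.7 RPKM in the positive libraries and 2.80 to 29.9 RPKM in the negative ones, with 2 of 6, Mcpt8 and Fcer1a, called higher and both of these listed at 0 in a library. With the replicate block all 6 were called higher. Mcpt8 and Cpa3 led them, with log2 fold changes of 5.77 and 1.95. Of markers of platelets, which store TGF-beta1, 3 of 9 were tested and 0 called (with Pf4 at 1.05 and Itgb3 at -0.14), and their sums were 12.5 to 37.3 RPKM in the positive libraries and 6.41 to 39.2 RPKM in the negative ones. Over 6 B cell, 6 neutrophil and 5 red cell markers limma made no call without the block. With it, 1 neutrophil marker was called lower, Ngp, chosen here with its value known. B cell markers, led by Cd79a (-0.67) and Cd79b (-0.83), summed to 70.9 to 199 RPKM in the positive libraries and 79.9 to 435 RPKM in the negative ones. Neutrophil markers, led by S100a8 (-2.10) and S100a9 (-1.79), summed to 3.03 to 712 RPKM in the positive libraries and 143 to 2057 RPKM in the negative ones. Red cell markers, led by Hba-a2 (0.83) and Hbb-b1 (0.82), summed to 2741 to 14567 RPKM in the positive libraries and 2271 to 5218 RPKM in the negative ones. Of 5 genes of NK cells 1 was called higher (Klri2, 1.75) and 1 lower (Eomes, -1.24), both named after their values were seen, with Klre1 and Klrb1c the most abundant at -0.18 and 0.35 and sums of 57.4 to 109.6 RPKM in the positive libraries and 78.7 to 124 RPKM in the negative ones. The part of other cell types in the values of the 9 genes was not tested.

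Set against the core T cell genes, the 9 genes all had higher means in positive libraries. The mean of log2(RPKM + 1) minus the core T cell mean of the same library differed by 1.80 for Tgfb1, 1.90 for Tgfbr1 and 2.02 for Skil. It differed by between 0.71 and 1.19 for the other 6. Scaling each library to the core T cell genes, limma called Tgfb1, Tgfbr1 and Skil higher (adjusted p = 0.0409, 0.0241 and 0.0286), 3 of the 9, where the background was 12.2% of all genes. The median over all genes was 0.94 under that scaling, 1.05 above its deposited value. Relative to that median the fold changes were 0.86 for Tgfb1, 0.96 for Tgfbr1 and 1.08 for Skil, and between -0.23 and 0.26 for the other 6, the same as under the deposited scaling. This sameness was fixed in advance, since the scaling adds the same 1.05 to the log2 fold change of every gene. The higher means of all 9 genes include that shift.

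Around the 9 genes, 78 further genes of the pathway were tested in 8 lists by role, of 103 listed. These lists were chosen with earlier results of these data known. Limma called 5 higher and 0 lower, beside 3.03% and 0.268% of all genes. With the replicate block 7 of the 78 were called higher and 0 lower, beside 7.22% and 3.85% of all genes. Their median log2 fold change was 0.02, against -0.11 over all tested genes.

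In the list of other receptors of the family, 1 of 7 tested genes was called. Acvrl1, which codes for ALK1, a type I receptor best known from endothelial cells, stood at 18.1, 29.2, 10.2 and 10.3 RPKM in positive replicates 1 to 4, against 0.226, 0.389, 0.483 and 4.32 RPKM in negative replicates 1 to 4. Every positive library exceeded every negative one, and negative replicate 4 stood above the other negative libraries. On the log2 scale the fold change was 3.10 with an SE of 0.50 (limma adjusted p = 0.00452, and 5.6e-06 with the replicate block). Leaving out any single library kept the call, 8 of 8 times, while replicates 3 and 4 alone ended it (2.0, limma adjusted p = 0.127). The other 6 receptors, among them Eng and Tgfbr3, lay between -0.75 and 0.13.

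Among genes known to rise with TGF-beta, 4 of 10 tested were called higher and 0 lower, beside 3.03% and 0.268% of all genes. With the replicate block 5 of the 10 were called higher, beside 7.22% of all genes. Since this list was chosen with earlier results of these data known, the share called is not an independent result. Tgfbi, a secreted matrix protein gene that macrophages also express, stood at 74.8, 89.6, 32.2 and 25.4 RPKM in positive replicates 1 to 4, against 2.54, 8.95, 1.17 and 5.41 RPKM in negative replicates 1 to 4. Tgfbi had a fold change of 3.39 on the log2 scale, with an SE of 0.53 (limma adjusted p = 0.0041). Itgae, which codes for the CD103 integrin chain of tissue-resident T cells and of cross-presenting dendritic cells, stood at 27.0, 40.8, 11.3 and 11.6 RPKM in positive replicates 1 to 4, against 4.15, 2.11, 3.90 and 8.10 RPKM in negative replicates 1 to 4. Itgae had a fold change of 2.0 on the log2 scale, with an SE of 0.46 (limma adjusted p = 0.0336). The positive libraries were above all negative ones for both genes, with replicates 1 and 2 the highest.

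Ahr, a ligand-activated transcription factor, averaged 12.6 ± 9.83 RPKM (SD) over the 4 positive and 1.67 ± 1.21 RPKM over the 4 negative libraries, with a log2 fold change of 2.21 (limma adjusted p = 0.0207). Cdkn1a, the gene of the cell cycle inhibitor p21, averaged 20 ± 10.4 RPKM (SD) over the 4 positive and 3.71 ± 1.28 RPKM over the 4 negative libraries, with a log2 fold change of 2.02 (limma adjusted p = 0.0237). Neither had overlapping groups. When each library was left out in turn, Tgfbi kept its call 8 of 8 times, Ahr 5, Cdkn1a 3 and Itgae 3 times, with adjusted p up to 0.0776, 0.106 and 0.124 for the last 3. Leaving out negative replicate 1, 2 or 3 ended the call for all of these 3, and leaving out positive replicate 1 or 2 ended it for Cdkn1a and Itgae. With libraries scaled to a common sum of RPKM the adjusted p was 0.0569 for Ahr, 0.0975 for Cdkn1a and 0.156 for Itgae (limma). The replicate block kept the calls of Ahr, Cdkn1a and Itgae, with limma adjusted p of 7.3e-05, 1.6e-05 and 0.00054. It also kept that of Tgfbi (limma adjusted p = 3.6e-08). Within replicates 3 and 4 alone Tgfbi was the 1 call among the 78 genes. That fit called 273 of all 11946 tested genes higher and 11 lower. Itgae had a log2 fold change of 3.10 within replicates 1 and 2 alone and of 0.90 within replicates 3 and 4 alone. Id1, which the naming rule did not take and which was chosen with its value known, was at a log2 fold change of 1.29 and was called with the block alone (limma adjusted p = 0.00823). Dendritic cell and macrophage markers stood higher in these positive libraries too (median log2 fold changes of 3.88 and 2.75), and their part in these values was not tested.

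The other lists held no call without the block. Of 6 ligands tested, limma called 0 with and without the block, with Gdf15 at 0.92 and Bmp7 at -0.87. Of 10 genes of latency, storage and activation 0 were called in either fit, with Ltbp2, a latent TGF-beta binding protein gene, at 0.94 and Itgav, an integrin chain that helps to release the ligand, at 0.57. The value of Ltbp2 was 2.05 with a pseudocount of 0.1, 1.84 within replicates 1 and 2 alone (called, limma adjusted p = 0.0055) and 0.042 within replicates 3 and 4 alone. The other SMADs, Smad1 and Smad5 of the BMP branch, were at -0.16 and -0.01. Of 19 regulators of receptors and SMADs 0 were called. Ldlrad4, a TGF-beta-induced inhibitor of the receptor SMADs, averaged 4.66 ± 1.00 RPKM (SD) over the 4 positive and 8.18 ± 2.28 RPKM over the 4 negative libraries, with a log2 fold change of -0.68 (limma adjusted p = 0.377), and Ctdsp2 was at 0.77. Of 14 nuclear partners 0 were called, with Zeb2 at 1.06 and the corepressor gene Ncor1 at -0.52, whose positive libraries (8.17 to 10.3 RPKM) all lay below the negative ones (11.2 to 15.0 RPKM). Within replicates 1 and 2 alone Zeb2 was at 1.81 and called (limma adjusted p = 0.0159). Of 10 genes of branches outside the SMADs limma called none, and Mapk14, the gene of p38 alpha, was called higher with the block alone (log2 fold change 0.78, adjusted p = 0.0469). Scaled to core T cell genes, limma called Ctdsp2 (1.82), Zeb2 (2.10) and Mapk14 (1.82) higher. They were among 10 of the 78 pathway genes called higher under that scaling, beside 12.2% of all genes.

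**Figure D4:**
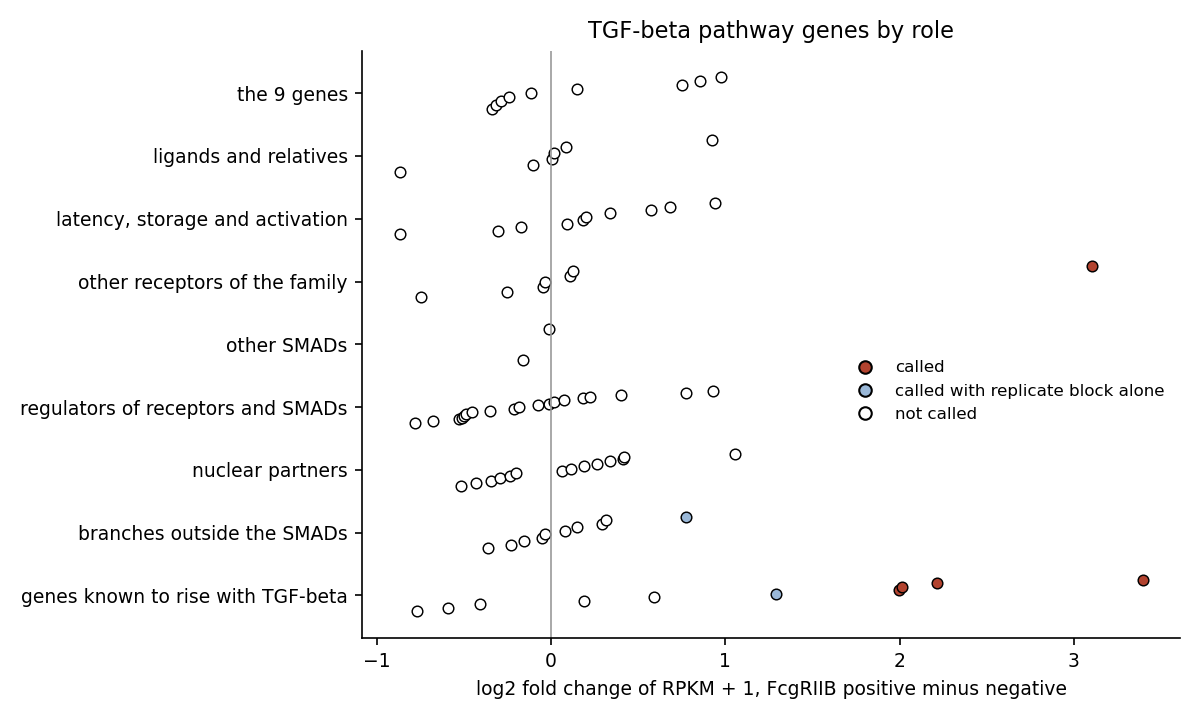
Log2 fold change of RPKM + 1, FcgRIIB-positive minus FcgRIIB-negative (x axis), of each tested gene (circles) by role, with the 9 genes in the top row. Red circles are called by limma, blue ones with the replicate block alone. The 5 red circles are Acvrl1 and 4 of the genes known to rise with TGF-beta, and no circle of the top row is filled.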

How the data were processed

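The authors deposited 1 RPKM value per gene and library, per the file headers. The submitters' processing notes name TopHat2, with no version, and the build mm9. The sources used here do not say how reads were counted or whether strand was used. The deposited exon length in bases served with RPKM to recover the value of 1 read. Of the low values checked, 100% per library came out whole within 0.1 reads. Tested on the values, every gene reached 3 RPM in at least 4 libraries, so rarer genes are outside the table.

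limma 3.58.1 (R 4.3.3; lmFit, eBayes with a trend) was run on log2(RPKM + 1) over the 11946 genes that reached 1 RPKM in 4 or more libraries (1258 did not), two-sided. P-values were adjusted over all of them (Benjamini-Hochberg). Fold changes understate the change of low genes. Ratios were compared by exact permutation over 35 splits, and within pools over 8 distinct exchanges. Replicate numbers mark 1 pool of spleens, per the series design text. Deviations from group means correlated within pairs 1 to 4 at 0.70, 0.41, 0.56 and 0.68. The fit with the replicate block stands beside the counts of calls, and beside single genes where it is named. P-values of the fit without the block rest on the spread between libraries of the same group. Those of the fit with the block rest on how the group difference varied between pools.

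The 9 genes and all lists were chosen with earlier results of these data known. Named were, from each pathway list, called genes of either fit (up to 4), or the 2 of smallest p where there was none. The 2 most abundant of each cell type list were also named, with 3 profile neighbours each for 3 of the 9 genes. The fit without the block was tested on simulated data whose libraries varied independently, with no effect of the pool. The blocked fit was not tested in this way. Alternatives were another pseudocount, filter, scaling or prior, the replicate block, libraries left out, and replicate sets. Promoter letters are from RefSeq, GRCm38.p6, and no other coordinate is given since the builds differ. Calls of B cell and red cell markers with the replicate block are not reported here.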

Additional observations from a re-analysis of the deposited data

Results flagged for a closer look

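Within a group of 4, a library far from the other 3 (by Dixon's criterion on the log2 scale) was found in 7 of 92 groups examined, where chance gives about 1 in 20. No value of the 9 genes and none of their ratios was among them. In negative replicate 4, Bmp7 was at 7.57 RPKM, Acvrl1 at 4.32 RPKM and the NK cell gene Klrb1c at 5.15 RPKM, the first 2 above and the last below the other negative libraries. Ncor1 was low in negative replicate 1, at 11.2 RPKM. In positive replicate 2, Mapk14 was high at 61.3 RPKM, and the neutrophil genes S100a8 and S100a9 were near 0, at 0.232 and 0.139 RPKM.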

How the results depend on the processing

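The 9 fold changes kept their side of the threshold under the other pseudocounts, no filter, the common sum, median ratios, quantiles, the prior without a trend, the replicate block and each library left out. Scaling to core T cell genes was the exception, with Tgfb1 at 1.80, Tgfbr1 at 1.90 and Skil at 2.02 called (3 genes) and 5 signs turned: Tgfbr2 0.81, Smad2 0.71, Smad4 0.76, Smad7 0.73 and Ski 0.93. That scaling adds the same 1.05 to every log2 fold change. It turned Bmp7 (0.18), Smad1 (0.89), Smad5 (1.04), Ldlrad4 (0.37) and Ncor1 (0.53) too. Replicates 1 and 2 alone called Skil (1.57), 1 gene of the 9, and put Smad5 at 0.053. Replicates 3 and 4 alone turned Smad4 (0.22), Ski (0.26) and Smad1 (0.15), and median ratios turned Smad5 (0.026). With single libraries left out, log2 fold changes ranged from -0.50 to 0.13 for Tgfbr2, -0.064 to 0.37 for Smad3, -0.47 to 0.19 for Ski, -0.37 to 0.10 for Smad1 and -0.094 to 0.049 for Smad5. They kept their sign for Tgfb1 (0.55 to 1.13), Tgfbr1 (0.60 to 1.06), Skil (0.62, without positive replicate 2, to 1.31), Smad2 (-0.62, without negative replicate 4, to -0.14, without negative replicate 2), Smad4 (-0.46, without positive replicate 4, to -0.069, without positive replicate 1) and Smad7 (-0.56, without positive replicate 4, to -0.091, without positive replicate 1). Signs turned at 0.13 without negative replicate 1 (Tgfbr2), at -0.064 without negative replicate 2 (Smad3), and at 0.12, 0.19 and 0.18 without positive replicates 1 and 2 and negative replicate 4 (Ski). Smad1 turned at 0.10 without positive replicate 1. Smad5 turned at 0.0015, 0.027 and 0.024 without positive replicates 2, 3 and 4, and at 0.038 and 0.049 without negative replicates 2 and 4.

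Pathway genes called higher numbered 2 under the common sum, 10 scaled to core T cell genes, 8 and 1 in replicates 1 and 2 and replicates 3 and 4 alone, and 2 to 5 with a library left out (3 without positive replicate 1 or 2, and 2 without negative replicate 1, 2 or 3). None was called lower in any setting. Over all genes the higher count was 863 with the replicate block, 220 under the common sum and 1454 scaled to core T cell genes. It was 875 in replicates 1 and 2 alone and 273 in replicates 3 and 4 alone. With a library left out it was 178 (without negative replicate 3) to 503. The lower count was 460 with the replicate block, 8 under the common sum, 19 by median ratios, 60 by quantiles, 0 scaled to core T cell genes, 19 without a trend, 142 and 11 in the 2 replicate sets, and 5 to 45 with a library left out, at most 19 except without negative replicate 4. The replicate block moved none of the 9 genes across the threshold. Some of these fits held fewer libraries, and why the counts of calls moved between settings was not tested. The ratio of Tgfbr1 to Tgfbr2 ranged from 0.90 to 1.44 with a library left out, with exact permutation p of 0.0286 to 0.0571 before adjustment, and no ratio passed after adjustment in any setting. In the fit without the block, the 95% intervals of the 9 fold changes were 1.39 to 2.09 wide. With the block they were narrower for each of the 9.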
